A study of Mus musculus with 19 samples.

Results

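Livers of IL-6 knockout mice (genotype given as IL-6 -/-) were compared with livers of wild-type (WT) mice after vehicle injection alone, across all genes. The comparison took the 4 knockout vehicle and 4 WT vehicle libraries, 8 of the 19 in the series, as the sample labels name them, and no measured value entered that choice. All mice were C57BL/6. The vehicle animals were given 2 intraperitoneal injections 3 h apart, and liver was taken 6 h after the first. For reference, 4 libraries came from WT mice that were not injected (normal), and 4 WT and 3 knockout libraries came from mice given 4 mg of furosemide at each injection to produce pre-renal azotemia (PRA). The labels give neither the construction of the knockout allele, the vehicle, nor the age or sex of the animals. Nor do they state whether each replicate is a different animal. The p-values therefore describe the spread among these libraries, and part of it may be technical.

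IL-6 is a cytokine of immune, endothelial and stromal cells. It binds the receptor chain IL6RA, pairs it with the shared signalling chain gp130 (Il6st), and activates JAK kinases and the transcription factor STAT3. In hepatocytes STAT3 switches on acute phase genes such as the serum amyloids, haptoglobin and fibrinogen, and it induces Socs3, which shuts the signal down. In a knockout made by gene targeting, the chromosome segment around the targeted gene can descend from the embryonic stem cell line in which the gene was altered, so neighbours of the target are often examined beside it.

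Libraries held 42905740 to 74041441 gene counts in the vehicle groups and 32073865 to 74041441 over all 19. The first principal component of the 8 vehicle libraries carried 22.7% of the variance and did not divide them by genotype, while the second carried 19.6% and did, with all 4 WT libraries above all 4 knockout libraries. Hepatocyte marker genes summed to 93446 to 116526 CPM (each count scaled to the size of its library) in WT vehicle libraries and 115432 to 123219 CPM in knockout vehicle libraries, and all 9 tested markers were found in every group. Il6 itself was at 4, 0, 0 and 0 counts in WT vehicle replicates 1 to 4 and at 4, 1, 1 and 3 counts in knockout vehicle replicates 1 to 4. It was too low to test and cannot check the genotype labels. Below, "knockout" stands for libraries labelled as IL-6 -/-.

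Few genes differed between the genotypes. Of 15570 genes tested with edgeR's quasi-likelihood test, 11 passed an adjusted p of 0.05, which is 0.0706% of those tested. Unless another tool is named, "called" refers to this edgeR test. Of these, 8 were higher in knockout livers (0.0514%) and 3 were lower (0.0193%). The 8 were Abhd1, S100a8, Susd4, Mup21, Galnt11, Ikbke, Gm2420 and Gm10419, and the 3 were AI506816, Rint1 and Slc39a4. At an unadjusted p under 0.05 there were 933 genes (5.99% of those tested), 482 higher and 451 lower. The CPM of the 2 groups did not overlap for 418 genes (2.68%). The median log2 fold change over all genes was -0.0089, and 92.9% of genes were within 1.5-fold. DESeq2 called 56 genes, with all 11 among them, and limma-voom called 21, with 10 of the 11. The count depended on single libraries: it fell to 2 without WT vehicle replicate 4, to 5 without knockout vehicle replicate 3 and to 6 without WT vehicle replicate 2.

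**Figure D1:**
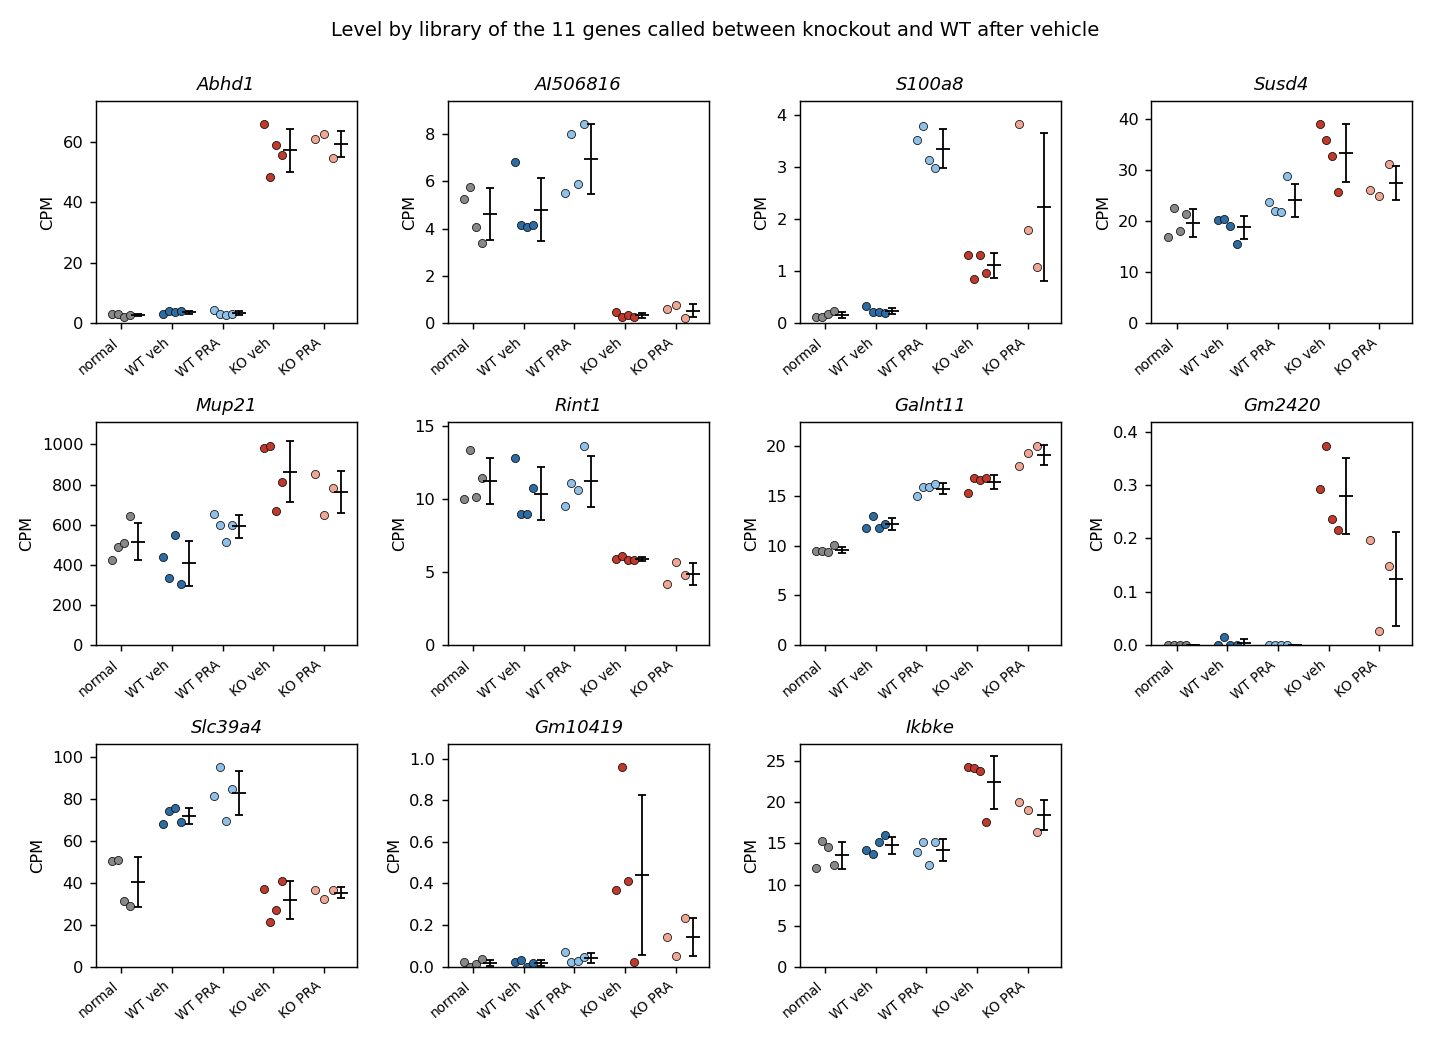
CPM of each of the 11 genes that passed the adjusted p threshold after vehicle (y axis, linear from 0), with 1 point per library in each of the 5 groups on the x axis and a bar for mean ± SD. Abhd1 sits at 48.4 to 65.8 CPM in knockout vehicle libraries and 3.04 to 4.10 CPM in WT vehicle libraries, and Gm10419 is the 1 gene whose vehicle groups overlap.

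Among the called genes, 5 lay within 10 Mb of Il6 on chromosome 5, by gene order in the GRCm38 annotation. They were AI506816, Rint1 and Galnt11 on one side of Il6, and Abhd1 and Gm2420 on the other. In that window 5 of 184 tested genes were called (2.72%), against 5 of 14518 on other chromosomes (0.0344%). Of the 5 in the window, Gm2420 met the low-count filter only through the knockout vehicle libraries, where it was high. Between 10 and 20 Mb 0 of 34 tested genes were called by edgeR or limma-voom and 1 by DESeq2, with 3 at an unadjusted p under 0.05, and over the rest of chromosome 5 there was 1 of 808, Gm10419. Within 10 Mb, 36 genes (19.6%) had an unadjusted p under 0.05 and 23 (12.5%) did not overlap between the groups, where the shares on other chromosomes were 5.71% and 2.49%. DESeq2 called 12 genes in the window and limma-voom 9. The count of 5 fell to 2 without WT vehicle replicate 4 or without knockout vehicle replicate 3, and to 3 without WT vehicle replicate 3. The median absolute log2 fold change was 0.12 in the window and 0.11 on other chromosomes.

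The promoters of the neighbouring pair that were both lower in knockout livers, AI506816 and Rint1, are shown because they lie close together on that segment. Each runs from 250 bases before to 50 bases after the annotated start, 5′ to 3′ on the gene's strand, from RefSeq on build GRCm38.p6. AI506816 is at chr5:23712618-23712917 on the minus strand and Rint1 at chr5:23787461-23787760 on the plus strand.
AI506816: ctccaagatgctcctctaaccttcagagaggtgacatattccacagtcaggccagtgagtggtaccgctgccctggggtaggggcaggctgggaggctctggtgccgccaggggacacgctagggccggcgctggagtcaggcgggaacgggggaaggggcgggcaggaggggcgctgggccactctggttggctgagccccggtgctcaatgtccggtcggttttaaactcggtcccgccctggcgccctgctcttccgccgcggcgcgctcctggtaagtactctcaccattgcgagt
Rint1: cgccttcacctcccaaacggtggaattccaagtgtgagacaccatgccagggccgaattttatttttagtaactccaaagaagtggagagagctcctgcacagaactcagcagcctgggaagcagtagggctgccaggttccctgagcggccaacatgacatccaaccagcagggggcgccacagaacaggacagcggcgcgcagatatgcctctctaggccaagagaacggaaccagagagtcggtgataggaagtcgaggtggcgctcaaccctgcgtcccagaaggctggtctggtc
No base is in capitals, since neither window holds TTCNNNGAA, the spaced palindrome that STAT proteins bind, which reads the same on both strands. Of the called genes, 8 had a promoter entry and 0 of these held the motif. Among tested genes with an entry, 950 of 11230 (8.459%) held it. The absence of these letters from a window of this length says nothing about binding of the factor elsewhere.

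**Figure D2:**
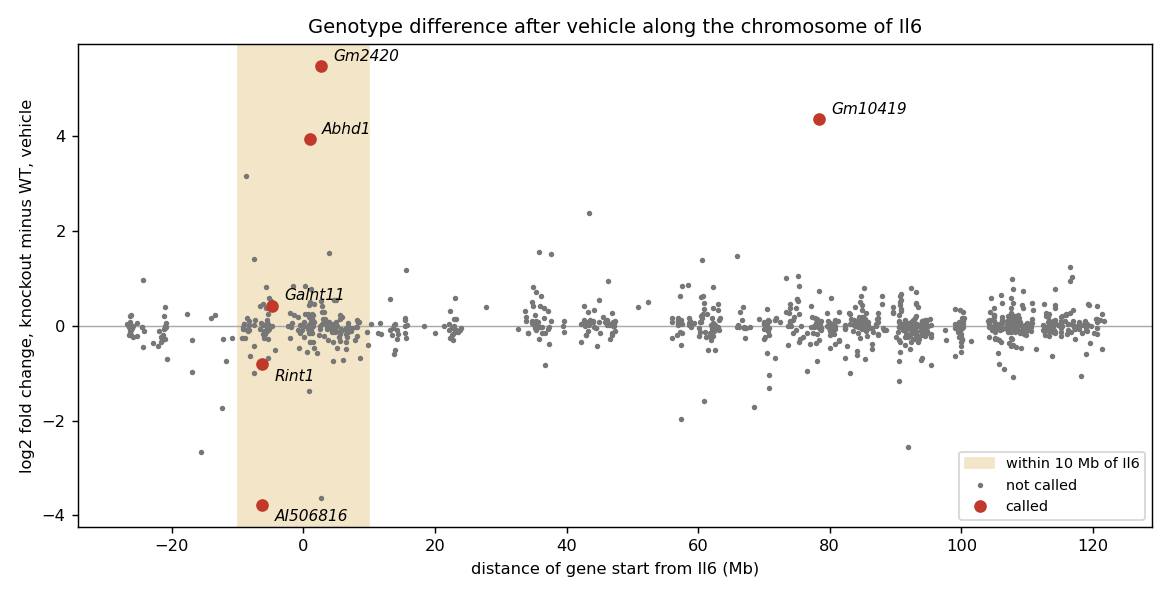
Log2 fold change of knockout over WT after vehicle (y axis) against the distance of each tested gene's start from Il6 in Mb (x axis, GRCm38 gene order) for the chromosome that carries Il6. Red points are called genes, 5 of them inside the shaded 10 Mb window, and grey points are genes that did not pass.

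Abhd1, named for the alpha/beta hydrolase family and typed as a processed transcript in the GRCm38 annotation, had the smallest p of all genes. It was at 65.8, 48.4, 59.0 and 55.6 CPM in the knockout libraries and at 3.04, 4.10, 3.81 and 4.00 CPM in the WT libraries. Every knockout library stood far above every WT library. This is a 15.3-fold difference, or 3.94 ± 0.15 on the log2 scale (SE, n = 4 and 4, edgeR adjusted p = 1.70e-13). Abhd1 starts 0.937 Mb from Il6 and overlaps Preb, a gene of secretory vesicle formation, on the opposite strand. Preb was at 89.6 ± 12.7 CPM in knockout and 86.6 ± 5.19 CPM in WT libraries (SD, n = 4 each), with a log2 fold change of 0.049 (edgeR adjusted p = 0.996). Whether counting used strand is not given in the sources used here.

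AI506816, a long noncoding RNA gene, showed the largest fall among the called genes. Its levels were 6.80, 4.17, 4.08 and 4.16 CPM in WT and 0.487, 0.260, 0.373 and 0.281 CPM in knockout libraries. AI506816 differed by -3.78 ± 0.30 on the log2 scale (edgeR adjusted p = 3.58e-07), from 73 counts in all knockout against 1279 in all WT libraries. The WT libraries were all far above the knockout ones, and WT replicate 1 was the highest.

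Rint1 is a near neighbour of AI506816 and encodes a tethering factor for transport between the Golgi and the endoplasmic reticulum. It was at 12.8, 8.94, 8.93 and 10.7 CPM in WT and at 5.91, 6.09, 5.81 and 5.79 CPM in knockout libraries. The knockout libraries were lower and close together, and no value overlapped. Rint1 differed by -0.81 ± 0.14 on the log2 scale (edgeR adjusted p = 0.0155). Leaving out WT vehicle replicate 1, WT vehicle replicate 4 or knockout vehicle replicate 3 ended the call, with edgeR adjusted p of 0.05001, 0.0631 and 0.0835. Pus7, a pseudouridine synthase gene between the pair, was at 3.89 ± 0.672 and 6.54 CPM on average in knockout and WT libraries, and did not pass with edgeR (log2 fold change -0.75, adjusted p = 0.142), though DESeq2 called it.

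Galnt11, an enzyme that starts mucin-type O-glycan chains, was a small and tight difference. Knockout libraries were at 15.3, 16.8, 16.7 and 16.8 CPM and WT libraries at 11.8, 13.03, 11.8 and 12.2 CPM. All knockout values lay above all WT values, and the log2 fold change was 0.43 ± 0.073 (edgeR adjusted p = 0.0155). Without WT vehicle replicate 3 or 4 the edgeR adjusted p was 0.0523 or 0.0686, and without knockout vehicle replicate 3 or 4 it was 0.0835 or 0.0519.

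Gm2420, annotated as a transcribed pseudogene, was near absent from WT livers. It had 60 counts over the 4 knockout and 1 count over the 4 WT libraries, a depth-scaled ratio of 72.5 with an exact 95% interval of 12.5 to 2910, which covers counting error only. Gm2420 met the low-count filter only through the knockout vehicle libraries, the group where it was high. Its call and ratio are therefore descriptive. The knockout libraries were at 0.292, 0.373, 0.236 and 0.216 CPM, and the 1 WT count was in replicate 2. The edgeR adjusted p was 0.0155, and with WT replicate 1, 2, 3 or 4 or knockout replicate 3 left out it was between 0.0523 and 0.0869. The genes beside it, Gm43852 and Pisd, the mitochondrial enzyme that makes phosphatidylethanolamine, just missed edgeR's threshold in opposite directions, and DESeq2 and limma-voom called both. Pisd was at 22.4 ± 3.75 CPM in knockout and 15.5 ± 1.84 CPM in WT libraries (log2 fold change 0.53, edgeR adjusted p = 0.0716). Gm43852 was at 0.206 CPM on average in WT and was found in 1 of 4 knockout libraries (edgeR adjusted p = 0.0598). Reads that a pseudogene shares with the gene it copies can lack a unique alignment. Such reads went to a summary line that was left out, so the levels at this locus are uncertain.

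On other chromosomes, Slc39a4 was the 1 gene called lower by edgeR. It encodes the zinc importer ZIP4. WT libraries were at 67.9, 74.3, 75.6 and 68.9 CPM, knockout libraries at 37.2, 21.4, 27.0 and 40.9 CPM, and normal WT libraries at 50.4, 51.0, 31.3 and 29.0 CPM. The WT vehicle libraries were higher than all others of these groups, while the knockout and normal libraries overlapped. Between the vehicle groups the log2 fold change was -1.18 ± 0.19 (edgeR adjusted p = 0.0155). Without WT vehicle replicates 2, 3 and 4 and knockout vehicle replicate 3 in turn, the edgeR adjusted p was 0.0781, 0.0523, 0.0631 and 0.1001.

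The zinc list held Slc39a4 and 23 other tested genes, and no other member was called by edgeR. DESeq2 called 4 members, Slc39a4, Mt1, Mt2 and Slc39a14, and limma-voom 3, Slc39a4, Mt1 and Mt2. The list's median log2 fold change was -0.028 (all genes -0.0089), and 6 members were lower and 1 higher at an unadjusted p under 0.05. Over all 15570 genes, 451 were lower and 482 higher at that p. The metallothioneins Mt1 and Mt2, small metal-binding proteins, are STAT3 and zinc targets. Mt2 was at 33.3, 103, 140 and 109 CPM in WT and 13.6, 51.9, 30.5 and 18.5 CPM in knockout libraries, and at 3.39 to 4.23 CPM in normal ones. WT replicate 1 was low, and the groups overlapped. Mt2 had a log2 fold change of -1.75 ± 0.40 and Mt1 one of -1.52 ± 0.37 (edgeR adjusted p = 0.189 and 0.252). Their DESeq2 adjusted p was 0.00287 and 0.00596 and their limma-voom adjusted p 0.0113 and 0.0278, and edgeR called both without WT vehicle replicate 1 (0.0338 for each). Mt2 also passed edgeR without knockout vehicle replicate 2 (adjusted p = 0.0438). Slc39a14 (ZIP14), the zinc importer that IL-6 is known to induce in hepatocytes, was at 152.7 ± 29.5 CPM in WT and 96.2 ± 10.4 CPM in knockout libraries, without overlap (log2 fold change -0.67 ± 0.15, edgeR adjusted p = 0.129).

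S100a8, a calcium-binding protein that neutrophils carry in quantity as calprotectin with S100a9, was at low levels. It was at 1.31, 0.860, 1.32 and 0.972 CPM in knockout and at 0.327, 0.218, 0.224 and 0.200 CPM in WT libraries. All knockout libraries were higher, with a log2 fold change of 2.16 ± 0.33 (edgeR adjusted p = 0.00913). With WT vehicle replicate 4 left out the edgeR adjusted p was 0.0631. S100a9 was at 1.48 ± 0.519 and 0.387 ± 0.0828 CPM (log2 fold change 1.92, edgeR adjusted p = 0.107), and DESeq2 and edgeR with the replicate block called it. Both belong to the neutrophil marker list and to its summed level. Of 15 markers 9 were tested, and all 9 had a positive log2 fold change, against 7416 of 15570 over all genes. Their median was 0.74, and S100a8 alone was called by edgeR and limma-voom. The summed neutrophil markers were at 7.93 to 8.93 CPM in knockout, 2.62 to 6.28 CPM in WT vehicle and 2.09 to 3.61 CPM in normal libraries. Ltf was at 0 in every knockout vehicle library and Ly6g in every WT vehicle and normal library. In bulk liver, more cells of a type and more RNA per cell cannot be told apart, and the part of neutrophil number in the S100a8 value was not tested.

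Ikbke encodes IKK-epsilon, a kinase that drives interferon induction with TBK1. Knockout libraries were at 24.3, 24.1, 23.8 and 17.6 CPM and WT libraries at 14.2, 13.7, 15.2 and 16.0 CPM. The groups did not overlap, and knockout replicate 4 was the nearest to WT. Ikbke differed by 0.60 ± 0.11 on the log2 scale (edgeR adjusted p = 0.0358). Leaving out any 1 of the 4 WT replicates or of knockout replicates 1 to 3 ended the call, with edgeR adjusted p from 0.0554 to 0.198. Its partner Tbk1 was at 20.8 and 22.1 CPM in knockout and WT libraries, with a log2 fold change of -0.087 (edgeR adjusted p = 0.994).

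Susd4, a membrane protein that restrains complement activation, was at 38.8, 35.8, 32.6 and 25.6 CPM in knockout and 20.2, 20.4, 19.02 and 15.5 CPM in WT libraries. Each knockout library was above each WT library. Susd4 differed by 0.82 ± 0.13 on the log2 scale (edgeR adjusted p = 0.0113), and the edgeR adjusted p was 0.0631 with WT vehicle replicate 4 left out. The complement list itself had 0 of 33 tested genes called by edgeR, DESeq2 or limma-voom. At an unadjusted p under 0.05, 2 of them were lower, against 451 of 15570 over all genes.

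Mup21, a major urinary protein made by the liver, was at 981, 993, 670 and 814 CPM in knockout and 440, 335, 550 and 303 CPM in WT libraries. The groups were separate, with a log2 fold change of 1.09 ± 0.17 (edgeR adjusted p = 0.0113). Without WT vehicle replicate 2 or 4 the edgeR adjusted p was 0.0684 or 0.0631. Mup20, the male pheromone darcin, was at 2897 and 2037 CPM (log2 fold change 0.51, edgeR adjusted p = 0.574), and Mup3 at 8415 and 8458 CPM (-0.0075, edgeR adjusted p = 0.999). Every Mup gene looked at except Mup3 had a positive log2 fold change, and only Mup21 was called. Mup12 (0.65) and Mup16 (0.72) also did not overlap between the groups (edgeR adjusted p = 0.638 and 0.890). Mup genes are near-identical copies. Reads without a unique alignment went to a summary line that was left out, 14.7% to 18.7% of each vehicle library. Mup counts may therefore miss reads that the copies share, and their levels are uncertain.

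Gm10419, a predicted noncoding gene, is named although its groups overlapped and its level was low, a choice made after its values were seen. It was at 0.370, 0.957, 0.412 and 0.0216 CPM in knockout and 0.0234, 0.0311, 0 and 0.0182 CPM in WT libraries, from 100 and 5 counts. Knockout replicate 2 was the highest and knockout replicate 4 lay among the WT libraries. The depth-scaled ratio was 24.2, with an exact 95% interval of 10.02 to 76.04 that covers counting error only. Gm10419 met the low-count filter through knockout vehicle replicates 1, 2 and 3, and no WT library reached that level. Its call and ratio are therefore descriptive. The edgeR adjusted p was 0.0319, and leaving out any 1 WT vehicle library or knockout vehicle replicate 2 or 3 ended the call, with edgeR adjusted p from 0.0653 to 0.133.

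The same genotype contrast under PRA used other libraries, 3 knockout and 4 WT. There 591 genes were called (3.8% of those tested), and in the interaction test, which asks whether the genotype difference changed with PRA, 74 were called (0.475%). The PRA count was 927 with DESeq2 and 81 with a 1.5-fold threshold (glmTreat), and fell to 314 without knockout PRA replicate 1 and 385 without WT PRA replicate 3. The interaction count was 176 with DESeq2 and 17 with glmTreat, and fell to 37, 40, 42 and 43 without knockout PRA replicate 2, WT vehicle replicate 2, WT PRA replicate 3 and knockout vehicle replicate 3. Of the 11 genes called after vehicle, 10 had the same sign under PRA, and 6 were called there too, in the same direction. These 6 were Abhd1, AI506816, Rint1, Galnt11, Gm2420 and Slc39a4, so all 5 called genes near Il6 were among them. Under PRA Abhd1 was at 61.1, 62.6 and 54.5 CPM in knockout against 2.78 to 4.57 CPM in WT libraries (log2 fold change 4.12, edgeR adjusted p = 2.16e-13). AI506816 (-3.69), Rint1 (-1.21), Slc39a4 (-1.23) and Galnt11 (0.28) had edgeR adjusted p of 4.14e-07, 4.72e-05, 0.00209 and 0.0494 there. Gm2420 had 19 counts over the knockout and 0 over the WT libraries, at least 6.86-fold higher with 3 counts over the WT group as the floor.

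S100a8 was the 1 gene of the 11 that passed the interaction test. Under PRA it was at 3.82, 1.78 and 1.08 CPM in knockout and 3.52, 3.79, 3.13 and 2.98 CPM in WT libraries. The groups overlapped there, and WT was mostly the higher. The log2 difference was -0.58 under PRA and 2.16 after vehicle, an interaction of -2.74 (edgeR adjusted p = 0.00328). Summed neutrophil markers under PRA were at 6.63 to 16.4 CPM in knockout and 14.5 to 17.4 CPM in WT libraries, and these sums overlapped and include S100a8. Susd4 (0.19), Mup21 (0.37), Ikbke (0.38) and Gm10419 (1.83) were not called under PRA, with edgeR adjusted p of 0.579, 0.333, 0.0897 and 0.347. Their interaction adjusted p ran from 0.215 to 0.790, so a difference between the treatments was not shown for these 4 genes.

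**Figure D3:**
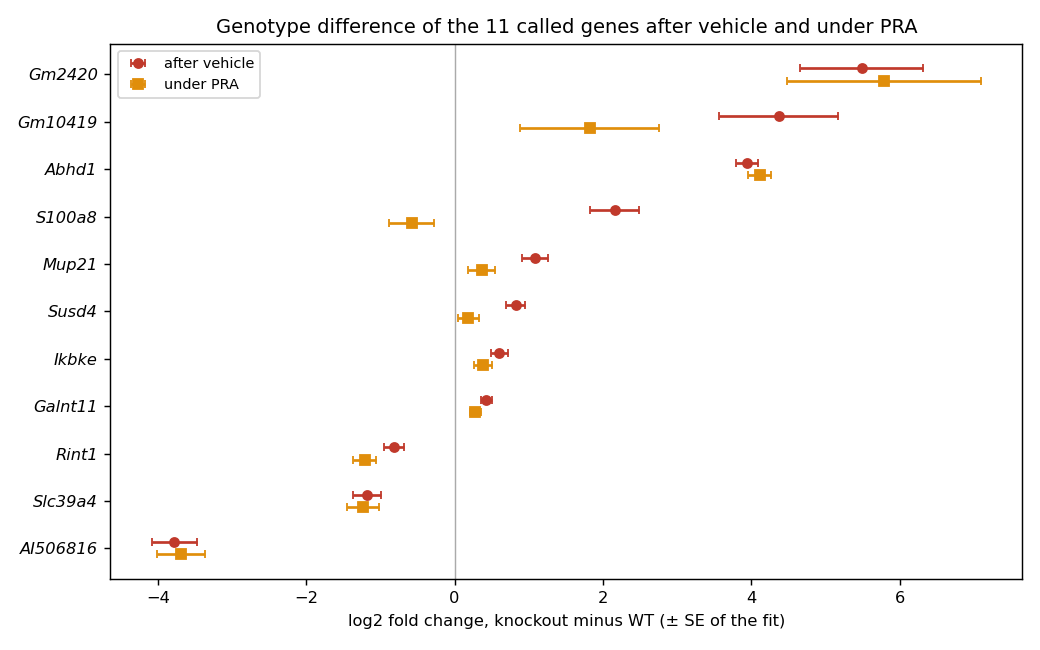
Log2 fold change of knockout over WT (x axis, ± SE of the fit) for the 11 genes called after vehicle, with circles for the vehicle libraries and squares for the PRA libraries. Abhd1 is at 3.94 and 4.12 and AI506816 at -3.78 and -3.69, while S100a8 is at 2.16 and -0.58.

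No gene of the IL-6 pathway passed after vehicle, where 0.0706% of all genes did. Of 34 tested receptors, kinases, STAT factors and feedback genes, 0 were called by edgeR, DESeq2 or limma-voom, and 4 had an unadjusted p under 0.05 (1 higher, 3 lower), which 5.99% of all genes had. At the share over all genes, fewer than 1 of 34 genes would be called, so the count of 0 is near the background. The median log2 fold change was -0.051. Il6ra was at 73.4, 41.6, 36.9 and 54.5 CPM in WT and 33.7, 55.8, 31.8 and 39.8 CPM in knockout libraries (log2 fold change -0.36 ± 0.30, edgeR adjusted p = 0.985). Il6st was at 91.5 ± 15.2 and 88.7 ± 4.23 CPM (-0.046 ± 0.11, edgeR adjusted p = 0.997). Stat3, itself a STAT3 target, was at 185, 81.6, 73.0 and 107 CPM in WT and 58.7, 81.4, 74.3 and 60.5 CPM in knockout libraries. WT replicate 1 was far above the other WT libraries, and the groups overlapped (-0.70 ± 0.22, edgeR adjusted p = 0.537). Socs3 was at 19.1 ± 4.42 and 14.95 ± 7.36 CPM (-0.35 ± 0.39, edgeR adjusted p = 0.996).

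Among positive acute phase genes, 0 of 40 tested were called by edgeR, and DESeq2 and limma-voom called 2 each, Mt1 and Mt2. At an unadjusted p under 0.05, 8 were lower and none was higher in knockout livers. Over all 15570 genes tested, 451 were lower and 482 higher at that p. EdgeR called 0.0706% of all genes, so 0 of 40 is near the background. The list's median was -0.050 on the log2 scale. Serpina3n, a plasma protease inhibitor, was at 719, 631, 617 and 585 CPM in WT, 482, 518, 510 and 469 CPM in knockout and 364 to 403 CPM in normal libraries. The 3 groups did not overlap, with knockout between normal and WT vehicle. Its log2 fold change between the vehicle groups was -0.37 ± 0.12 (edgeR adjusted p = 0.545). Lrg1, a secreted glycoprotein, and Saa4, the constitutive serum amyloid, had log2 fold changes of -0.56 and -0.68 (edgeR adjusted p = 0.428 and 0.407).

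The serum amyloids Saa1 and Saa2, near-identical genes that are the most inducible of the acute phase, were spread widely within each group. Saa1 was at 187, 87.1, 136 and 69.0 CPM in WT and 120, 64.1, 49.0 and 138 CPM in knockout libraries. Saa2 was at 68.6, 21.8, 27.9 and 19.4 CPM in WT and 44.7, 14.98, 14.02 and 9.57 CPM in knockout libraries. Both pairs of groups overlapped (-0.37 ± 0.35 and -0.73 ± 0.49, edgeR adjusted p = 0.994 and 0.947).

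Saa3 (0.79 ± 0.52), haptoglobin Hp (0.37 ± 0.20), the siderophore-binding Lcn2 (-0.27 ± 0.33), orosomucoid Orm1 (-0.18 ± 0.14), the fibrinogen chain Fgb (-0.035 ± 0.15) and the iron hormone Hamp (-0.34 ± 0.24) had log2 fold changes with edgeR adjusted p of 0.944, 0.890, 0.996, 0.974, 0.998 and 0.964. The 95% interval of the Fgb log2 fold change ran from -0.35 to 0.28 and that of Orm1 from -0.46 to 0.10. Those of Saa1 (-1.11 to 0.38) and Lcn2 (-0.96 to 0.43) leave room for larger differences. The negative acute phase list, with albumin and transthyretin, had 0 of 18 called by any of the 3 tools. It had 0 at an unadjusted p under 0.05, which 5.99% of all genes had.

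**Figure D4:**
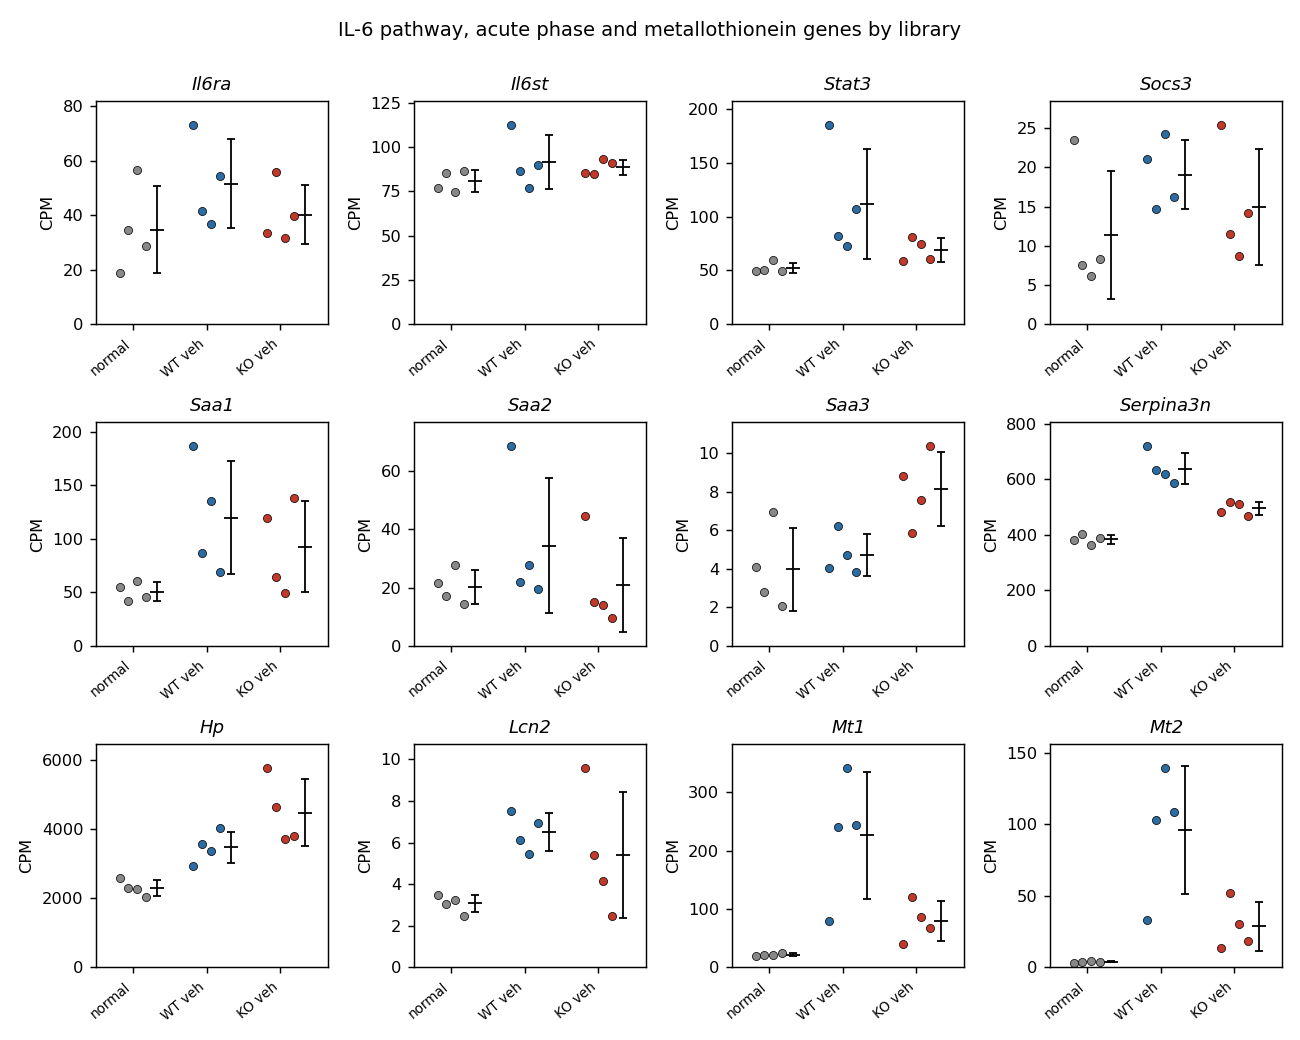
CPM by library (y axis, linear from 0) of 12 IL-6 pathway, acute phase and metallothionein genes in normal, WT vehicle and knockout vehicle livers, with a bar for mean ± SD. Serpina3n and Mt2 are lowest in normal livers, at 364 to 403 and 3.39 to 4.23 CPM, and none of the 12 genes passed between the vehicle groups with edgeR, while DESeq2 and limma-voom called Mt1 and Mt2.

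Interferon response genes had mostly positive log2 fold changes, and none passed the test. Of 53 tested, 49 had a positive log2 fold change, and the median was 0.31 (all genes -0.0089). At an unadjusted p under 0.05, 11 were higher and 0 lower. Over all 15570 genes, 7416 were positive, and 482 were higher and 451 lower at that p. EdgeR, DESeq2 and limma-voom called 0 of the 53. The guanylate-binding proteins, which defend cells against intracellular microbes, led them. Gbp2 was at 6.12, 5.16, 7.23 and 5.18 CPM in knockout and 3.34, 3.14, 3.51 and 4.22 CPM in WT vehicle libraries, but normal WT libraries reached 10.9 CPM. Its log2 fold change was 0.74 ± 0.27 (edgeR adjusted p = 0.671).

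Antigen presentation genes ran the same way, with 28 of 33 positive, a median of 0.17, and 6 higher at an unadjusted p under 0.05. Over all genes, 7416 of 15570 were positive and 482 higher at that p. None of the 33 was called by edgeR, DESeq2 or limma-voom. Cd74, the class II invariant chain, was at 104, 95.8, 106 and 97.5 CPM in knockout and 49.8, 63.6, 101 and 53.6 CPM in WT libraries. WT replicate 3 lay among the knockout libraries, and the log2 fold change was 0.59 ± 0.18 (edgeR adjusted p = 0.492).

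Leukocyte markers also had mostly positive log2 fold changes, where 7416 of 15570 were positive over all genes. Monocyte and dendritic markers had 11 of 12 positive with a median of 0.58, and their sum was at 9.64 to 11.6 CPM in knockout, 5.74 to 8.20 CPM in WT vehicle and 6.79 to 8.93 CPM in normal libraries. B cell markers had 13 of 14 positive (median 0.53) and T and NK cell markers 13 of 14 (median 0.44), and the summed levels of both overlapped between the genotypes, at 11.7 to 19.1 against 7.27 to 17.2 CPM and at 8.42 to 11.9 against 5.54 to 9.83 CPM. None of these markers was called by edgeR, DESeq2 or limma-voom. In the same order of lists, 5, 4 and 3 had an unadjusted p under 0.05, which 5.99% of all genes had. The part of leukocyte number in the interferon and antigen presentation values was not tested. Under PRA the summed monocyte markers were at 6.50 to 8.44 CPM in knockout and 7.52 to 8.88 CPM in WT libraries.

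Kupffer cell markers, of the resident liver macrophages, had 14 of 15 positive (median 0.30), and 1, Marco, had an unadjusted p under 0.05. The shares over all genes were 7416 of 15570 positive and 5.99% at that p. Marco, a scavenger receptor that takes up bacteria and particles, was at 22.9, 23.3, 34.1 and 11.7 CPM in knockout and 5.68, 4.35, 4.57 and 3.14 CPM in WT libraries, with 2.13 to 8.75 CPM in normal ones. The knockout libraries were all higher than the others, and unequal among themselves. Marco differed by 2.37 ± 0.51 on the log2 scale (edgeR adjusted p = 0.150), and DESeq2 and the edgeR fit to the 8 vehicle libraries alone did call it. The summed Kupffer markers overlapped, at 544 to 616 CPM in knockout and 290.1 to 549 CPM in WT libraries. Sinusoidal endothelial markers had a median of -0.0064 over 17 genes, and 0 were called by any of the 3 tools. None had an unadjusted p under 0.05, which 5.99% of all genes had.

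The chemokine Cxcl1, which draws neutrophils, was at 12.7, 9.39, 14.4 and 12.4 CPM in WT and 2.55, 4.79, 5.03 and 3.87 CPM in knockout libraries. WT libraries were all higher, while the neutrophil markers had positive log2 fold changes. For Cxcl1 the log2 fold change was -1.59 ± 0.33 (edgeR adjusted p = 0.134), and DESeq2 and the edgeR fit to the 8 vehicle libraries alone called it. Under PRA it was -3.38 (edgeR adjusted p = 5.59e-05). The edgeR interaction adjusted p was 0.150, so a difference between the treatments was not shown for Cxcl1. The list of NF-kB and chemokine genes had 0 of 35 called by edgeR, 2 by DESeq2 and 0 by limma-voom. At an unadjusted p under 0.05, 4 were higher and 2 lower, against 482 and 451 of 15570 over all genes.

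**Figure D5:**
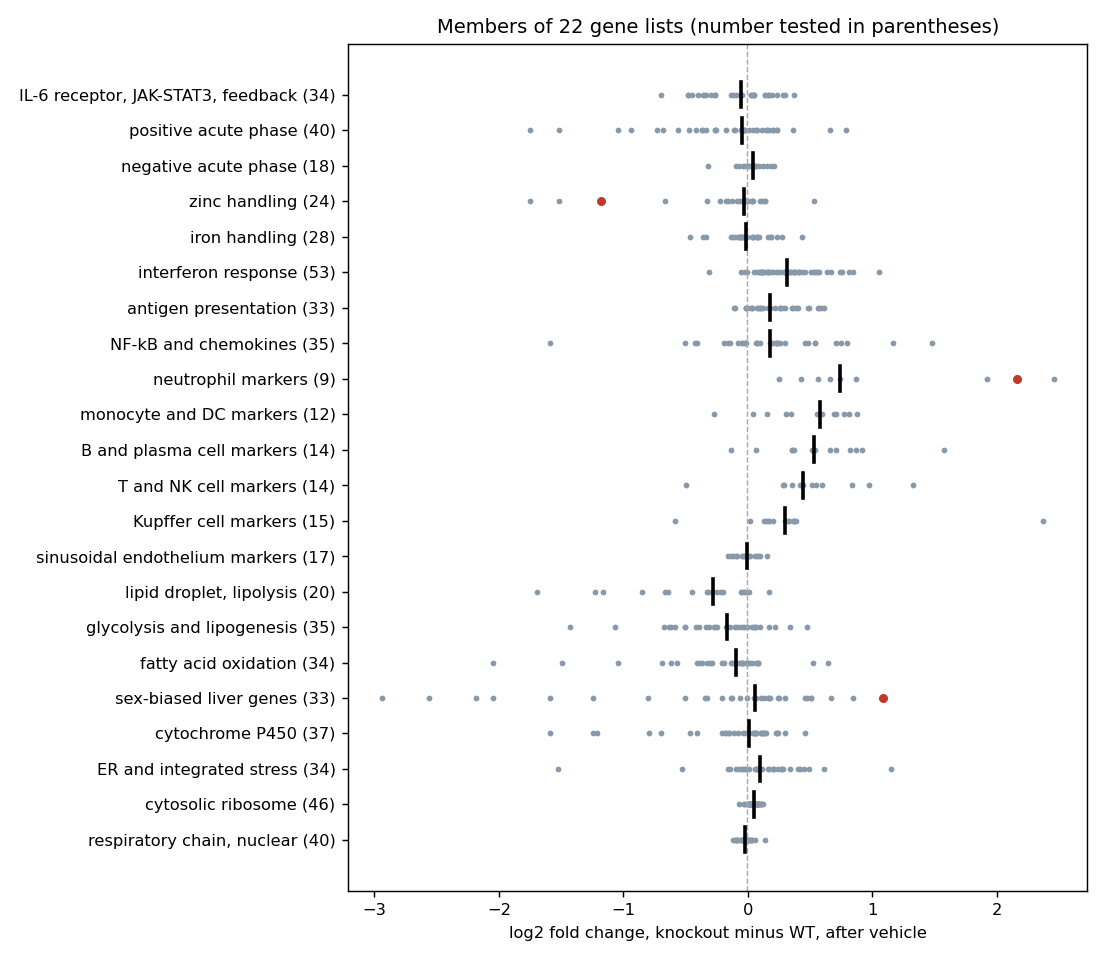
Log2 fold change of knockout over WT after vehicle (x axis) for the tested members of 22 gene lists, 1 row per list, with a black bar at the list's median and red points for genes called by edgeR. The interferon row has its median at 0.31 and the neutrophil row at 0.74, while the IL-6 pathway and positive acute phase rows have theirs at -0.051 and -0.050.

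Lipid droplet genes had mostly negative log2 fold changes, and none passed with edgeR. Of 20 tested, 18 had a negative log2 fold change with a median of -0.28, and 7 were lower at an unadjusted p under 0.05. Over all 15570 genes, 8154 had a negative log2 fold change and 451 were lower at that p. Of the 20 lipid droplet genes, DESeq2 called 1, Plin4, and limma-voom 0. Plin4, a perilipin that coats droplets, was at 12.5, 7.93, 3.32 and 14.0 CPM in WT and 3.26, 3.23, 2.63 and 2.59 CPM in knockout libraries (-1.69 ± 0.42, edgeR adjusted p = 0.302). WT libraries varied widely, and WT replicate 3 was close to the knockout level.

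Lpin1, a phosphatidate phosphatase and coactivator of fatty acid oxidation genes, was called by DESeq2 and missed edgeR's threshold. It was at 469, 300, 259 and 213 CPM in WT, 93.2, 114, 123 and 131 CPM in knockout and 127 to 299 CPM in normal libraries. The vehicle groups were separate, and the normal libraries spanned the gap between them. Its log2 fold change was -1.43 ± 0.27 (edgeR adjusted p = 0.0716), and under PRA it was -0.0017 (edgeR adjusted p = 0.999). The edgeR interaction adjusted p was 0.168, so a difference between the treatments was not shown for Lpin1. Acot3, a peroxisomal thioesterase, was at 14.9 CPM on average in WT against 3.61 CPM in knockout libraries, and WT replicate 4 alone was at 48.55 CPM (edgeR adjusted p = 0.810). The fatty acid oxidation list had 0 of 34 called by edgeR, DESeq2 or limma-voom. At an unadjusted p under 0.05, 6 of its genes were lower, against 451 of 15570 over all genes.

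Among genes that differ between male and female mouse liver, some were uneven within WT vehicle libraries and others within knockout ones. Of 33 tested, Mup21 was called, with a median log2 fold change of 0.059. At an unadjusted p under 0.05, 4 were higher and 7 lower, against 482 and 451 of 15570 over all genes. Cux2, a transcription factor of female liver, was at 0.514, 0.871, 8.99 and 4.36 CPM in WT and 0.195, 0.568, 1.32 and 0.389 CPM in knockout libraries. WT replicates 3 and 4 were high and the other 2 WT libraries lay within the knockout range (edgeR adjusted p = 0.581). Cyp2c40 and Cyp2c69 spread more in the knockout libraries instead. Cyp2c40 was at 32.2 ± 3.49 CPM in WT and 13.5 ± 10.6 CPM in knockout libraries (SD, edgeR adjusted p = 0.833). Cyp2c69 was at 12.3 ± 2.47 CPM in WT and 4.04 ± 3.87 CPM in knockout libraries (SD, edgeR adjusted p = 0.739). Xist, expressed from the inactive X chromosome of females, had at most 5 counts in a library. The Y-linked Eif2s3y was at 39.1 ± 1.36 CPM in knockout and 39.1 ± 2.10 CPM in WT vehicle libraries (SD). Kdm5d was at 7.47 and 7.45 CPM, Ddx3y at 10.8 and 13.4 CPM and Uty at 3.56 and 4.29 CPM, in the same order. None of these 4 Y-linked genes was called.

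Among housekeeping lists, cytosolic ribosomal protein genes had a median log2 fold change of 0.046 over 46 genes, nuclear genes of the respiratory chain -0.020 over 40, and mitochondrially encoded genes 0.053 over 15. EdgeR, DESeq2 and limma-voom called 0 genes in each, and none had an unadjusted p under 0.05, which 5.99% of all genes had. Genes of the endoplasmic reticulum and integrated stress responses had 24 of 34 positive (7416 of 15570 over all genes) with a median of 0.10. At an unadjusted p under 0.05, 8 were higher (482 over all genes) and 1 lower (451), with 0 called by the same 3 tools. Pdia4, a protein disulfide isomerase, had the smallest p of these (0.42 ± 0.13, edgeR adjusted p = 0.516).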

How the data were processed

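Poly(A) RNA of mouse liver was sequenced as read pairs, per the labels' protocols. The authors deposited raw counts per gene; the tools were HTSeq 0.11.3, HISAT2 2.2.1 and SAMtools 1.13 on build GRCm39, per the submitters' processing notes. Neither the annotation release nor the strand setting is given in the sources used here, so reads of overlapping or antisense genes cannot be told apart. Summary lines, 28.3% to 33.1% of a library, were left out. The table of the whole series was used, and the per-library files hold the same counts.

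Of 55416 gene lines, 15570 passed filterByExpr (15542 with a symbol). One edgeR 4.0.16 quasi-likelihood model in R 4.3.3, with TMM scaling, robust dispersion and 1 mean per group, was fitted to all 19 libraries. Contrasts were knockout minus WT after vehicle and under PRA, and their interaction, with Benjamini-Hochberg adjustment over all genes tested. Levels are TMM-scaled CPM. Alternatives used DESeq2 1.42.0, limma 3.58.1 voom with sample weights, other scalings and filters, a 1.5-fold threshold (glmTreat), a fit to only the libraries of the groups compared, the replicate number as a block, and each library left out. The procedure was also run on simulated counts drawn from the fitted spread, with known changes only in genes above a minimum level. Such counts cannot speak to calls in genes of lower level or to dependence on single libraries. No 2 replicates of a vehicle group agreed within sampling noise (lowest chi-square per degree of freedom 29.4). The floor for a count of 0 was set at 3 counts, or 0.0405 to 0.0699 CPM in the vehicle libraries, for counting error only.

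The comparison, lists and named genes were chosen with earlier results of these data known. Named were a fixed set of IL-6 pathway, acute phase, metallothionein and marker genes. Added to these were called genes with a mean of at least 2 CPM, an established symbol and no overlap (up to 15 per direction), up to 3 called members of each list, and all called genes within 10 Mb of Il6. Other genes named were chosen after their values were seen. Distances and promoters come from GRCm38, not from the files' build, and serve only for gene order and sequence. A plan to use windows on GRCm39 could not be carried out with the annotation used here. Abhd1, Slc39a4 and Gm2420 had no promoter entry.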

Additional observations from a re-analysis of the deposited data

Results flagged for a closer look

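In 26 genes looked at over the 4 groups of 4 libraries, 8 single libraries stood apart from the other 3 by Dixon's criterion. Chance does so in about 1 in 20 groups. In WT vehicle livers these were AI506816 in replicate 1 (6.80 CPM, others 4.08 to 4.17) and Gm2420 in replicate 2 (0.0155 CPM, others 0). The Gm2420 value is 1 count. Any count beside libraries at 0 is flagged by this criterion, so that flag carries no information and the chance rate does not apply to it. In knockout vehicle livers they were Galnt11 in replicate 1 (15.3 CPM), Ikbke in replicate 4 (17.6 CPM, others 23.8 to 24.3) and Saa2 in replicate 1 (44.7 CPM, others 9.57 to 14.98). In normal livers they were Galnt11 in replicate 4 (10.1 CPM), Stat3 in replicate 3 (59.5 CPM) and Socs3 in replicate 1 (23.4 CPM, others 6.10 to 8.35).

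The genotype difference under PRA differed from that after vehicle, by edgeR's interaction test, in 7 of the 26 genes. Over all genes tested the share was 74 of 15570 (0.475%). The 26 were chosen with earlier results of these data known, so 7 of 26 is not a rate to set against that share. On the log2 scale the change was -6.19 for Saa2, -4.67 for Saa1, -4.06 for Lcn2, -2.74 for S100a8, -1.93 for Serpina3n, -1.29 for Orm1 and -1.10 for Fgb. The edgeR adjusted p was 0.00115, 0.000425, 0.000434, 0.00328, 3.39e-06, 0.00193 and 0.0247 in that order. S100a8 was the 1 gene of these that also passed after vehicle.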

How the results depend on the processing

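The count of 11 genes after vehicle was 4 with a 1.5-fold threshold (glmTreat), 56 with DESeq2, 21 with limma-voom and 7 in the fit to only the vehicle groups. With 1 library left out it ran from 2 to 15. Near Il6 the count of 5 was 12 with DESeq2 and 2 to 6 with 1 library left out. Under PRA the count of 591 was 81 with glmTreat, 927 with DESeq2 and 314 to 489 with 1 library left out. The interaction count of 74 was 17, 176 and 37 to 95. Abhd1 and AI506816 passed in all 17 alternatives run on them. S100a8 passed in 16 of 17, Susd4 in 14, Mup21 in 13, Rint1 in 12, Slc39a4 in 11, Galnt11 in 10 and Ikbke in 7, while Gm2420 passed in 10 of 16 and Gm10419 in 6 of 15. In the fit to only the vehicle groups, Susd4, Mup21, Rint1, Galnt11 and Ikbke had edgeR adjusted p of 0.0708, 0.115, 0.0716, 0.374 and 0.237. A filter of at least 1 CPM in 3 libraries removed Gm2420 and Gm10419 from testing, and the fit to only the vehicle groups removed Gm10419. No called gene changed sign. Of uncalled genes, Il6st was 0.060 with limma-voom and -0.12 to 0.067 with 1 library left out (positive without WT vehicle replicate 1), and Fgb -0.17 to 0.046 (0.022, 0.033 and 0.046 without WT vehicle replicate 3 and knockout vehicle replicates 2 and 4), on the log2 scale. The cause of these shifts was not tested.

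Deviations of same-numbered vehicle libraries correlated at -0.022, -0.052, 0.17 and -0.00125. Libraries of different number were not compared in this way, so pairing by replicate number was neither shown nor excluded. With the replicate block 11 genes were called, 8 of them shared. Ikbke, Gm10419 and Gm2420 had edgeR adjusted p of 0.0736, 0.0736 and 0.0642 there. The block gave 496 calls under PRA and 74 for the interaction.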
